A study of Arabidopsis thaliana with 12 samples.

Results

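WRKY22 (AT4G01250), WRKY6 (AT1G62300), BZIP53 (AT3G62420) and bZIP58 (AT1G13600) are 4 transcription factor genes of Arabidopsis thaliana, 2 of the WRKY family and 2 of the bZIP family. They were found by their symbols in the platform annotation, 1 probe set each, among 13286 loci with a named probe set. They were taken because their root transcript levels had moved between T0 and T0.5 on these same arrays. Their changes from T0 to T0.5 are therefore given as a description, without p-values. The comparisons of both genotypes at 1 time, and of the size of the change between genotypes, were tested. These tests use the same arrays, so their p-values for the 4 factors are not free of that choice.

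RNA came from roots of 10-day-old Columbia plants, either wild type or chl1-5, a mutant of CHL1, which is a nitrate transporter and nitrate sensor. Both genotypes had grown in separate areas of the same meshes on 12.5 mM ammonium succinate without nitrate, and were held for 3 h in that nitrogen source at pH 5.5. T0 roots were taken after washing, and T0.5 roots after a further 30 min in medium with 25 mM KNO3 in place of the ammonium salt. Each of the 4 groups (wild type T0, wild type T0.5, chl1-5 T0, chl1-5 T0.5) had 3 Affymetrix ATH1 arrays, each from about 900 pooled seedlings of 9 vessels. Between T0 and T0.5 the plants also lost their ammonium salt and were moved, so these steps and nitrate cannot be told apart here. The mutant is represented by the allele chl1-5 alone, and CHL1 itself had no named probe set and was not analysed here.

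WRKY factors are plant proteins that bind short W-box elements through a conserved domain and act mainly in defence, senescence and nutrient stress. bZIP factors bind DNA as dimers through a basic region and a leucine zipper, and the choice of dimer partner shapes which genes they act on. WRKY22 is known as a late step of the kinase cascade that is started by bacterial flagellin. WRKY6 is known for roles in senescence, pathogen defence and the repression of the phosphate exporter gene PHO1. BZIP53 pairs with other bZIP proteins to activate genes of amino acid metabolism in energy-starved cells and genes of seed maturation. bZIP58 is a small bZIP factor of the same group S as BZIP53.

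Values are MAS5 signals in linear units, scaled by the authors so that the trimmed mean of every array lay between 499.4 and 500.6. A signal is called weak when it lay under the 40th percentile of its array, which was between 98.3 and 111.2. Array medians were between 175.9 and 195.4. The 3'/5' ratios of control probe sets are a measure of RNA integrity. For GAPDH they were 0.86 to 1.14 in wild type T0 and 1.03 to 1.38 in wild type T0.5. In chl1-5 they were 0.97 to 1.24 at T0 and 1.19 to 1.23 at T0.5. The other controls gave higher ratios over all arrays, 1.68 to 2.24 for ubiquitin and 9.72 to 18.42 for actin. The actin signal was thus far stronger at the 3' end on every array. The part of these ratios in the results was not tested. Of the 7 root markers listed, the 2 with a named probe set were PYK10, a root beta-glucosidase, and EXPA7, a root hair expansin. Their summed signal lay between 16660 and 23360 on all arrays and came mainly from PYK10. EXPA7 fell from T0 to T0.5 in both genotypes, by 0.79 in wild type (SE 0.17, limma adjusted p = 0.0172) and by 0.73 in chl1-5 (adjusted p = 0.0334) on the log2 scale. Its mean signals at T0 and T0.5 were 1299 ± 121 and 757 ± 140 in wild-type roots and 1295 ± 109 and 791 ± 182 in mutant roots (SD, n = 3), and its part in the changes of the 4 factors was not tested. Of the 7 shoot markers listed 2 had a named probe set, and their sum was 564 to 749. It came mainly from RCA, the activase of Rubisco, with group means of 609 to 637, while PRK, a Calvin cycle kinase, was weak on all 12 arrays. In whole roots, fewer cells of a type and less RNA per cell cannot be told apart.

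In wild-type roots WRKY22, BZIP53 and bZIP58 rose from T0 to T0.5 and WRKY6 fell. The rises were 3.30-fold for WRKY22, 2.81-fold for bZIP58 and 2.36-fold for BZIP53, and the fall of WRKY6 was 1.69-fold. In chl1-5 roots WRKY22 rose 4.54-fold and BZIP53 1.98-fold. WRKY6 stood 1.40-fold lower and bZIP58 only 1.35-fold higher at T0.5 there. The factor whose behaviour differed most between genotypes was bZIP58, which had nearly the same level in both before nitrate and a 2.09-fold lower level in chl1-5 after it.

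The arrays of T0 and T0.5 did not overlap for 4 of 4 genes in wild type, where this was so for 25.3% of the 14291 probe sets tested, and for 3 of 4 in chl1-5, where the share was 19.8%. The genes were chosen on these contrasts, so nothing is read from those counts. bZIP58 was the gene whose chl1-5 arrays overlapped. Over all probe sets tested the median log2 change was -0.09 for the wild type and -0.06 for chl1-5. Scaling the arrays to equal medians moved the wild-type median to 0.01, and the 4 changes there became 1.82 for WRKY22, -0.66 for WRKY6, 1.34 for BZIP53 and 1.59 for bZIP58.

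**Figure D1:**
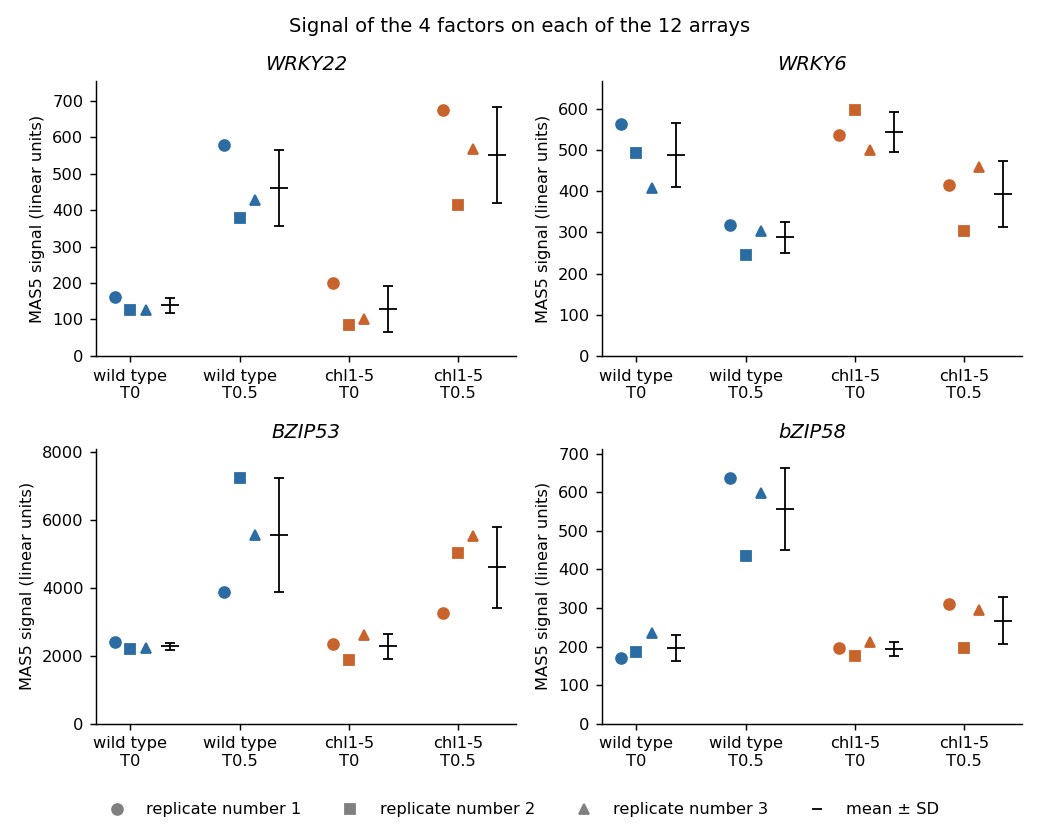
Signal of each factor (linear MAS5 units, y axis from 0) on each of the 12 arrays, by group, with symbols for the replicate number and a bar for the mean ± SD of 3 arrays. WRKY22, BZIP53 and bZIP58 are higher at T0.5 than at T0 in wild type and WRKY6 is lower, and the chl1-5 T0.5 arrays of bZIP58 (197 to 310) all lie below the wild-type T0.5 arrays (435 to 636).

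WRKY22 had signals of 162, 127 and 127 in wild type at T0 (replicates 1, 2 and 3) and of 579, 377 and 427 at T0.5. In chl1-5 the signals were 200, 84.2 and 100.4 at T0 and 673, 413 and 568 at T0.5. All 6 arrays of T0.5 lay above all 6 of T0, and replicate 1 was the highest array of every group. The group means were 138 ± 20.0 and 461 ± 105 in wild type and 128 ± 62.7 and 551 ± 131 in chl1-5 (SD, n = 3). These are log2 changes of 1.72 for the wild type and 2.18 for chl1-5 (SE 0.29 each). Its signal was weak on 2 of the 3 chl1-5 T0 arrays, so the size of the rise in chl1-5 rests partly on weak signals.

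In order of level, chl1-5 T0 and wild type T0 stood lowest, followed by wild type T0.5 and chl1-5 T0.5. Neither neighbouring pair of genotypes differed beyond the spread. At T0 chl1-5 stood at -0.21 against wild type (95% confidence interval -0.85 to 0.43, limma adjusted p = 1.00), and at T0.5 at 0.25 (-0.39 to 0.89, adjusted p = 1.00). The rise in chl1-5 was larger by 0.46 (SE 0.42, interval -0.45 to 1.36, adjusted p = 1.00). By replicate number the rise was 3.58-fold, 2.97-fold and 3.37-fold in wild type and 3.37-fold, 4.91-fold and 5.65-fold in chl1-5. Replicates 2 and 3 thus had the larger rise in chl1-5 and replicate 1 did not. The interval of the difference reaches from a rise smaller in chl1-5 to one 2.58-fold larger. It comes from the fit without the replicate number as a block. With that block the SE of the difference was 0.23 and its unadjusted limma p was 0.0703, and it did not pass.

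WRKY6 moved the opposite way. Its signals in wild type were 564, 493 and 409 at T0 and 317, 246 and 302 at T0.5. In chl1-5 they were 536, 596 and 499 at T0 and 415, 304 and 459 at T0.5. Both genotypes had every T0.5 array below every T0 array, and replicate 2 was the lowest array of T0.5 in both. The means were 489 ± 77.7 and 288 ± 37.4 in wild type and 543.5 ± 49.0 and 393 ± 80.1 in chl1-5 (SD, n = 3). The log2 change was -0.76 for the wild type and -0.49 for chl1-5 (SE 0.17 each).

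The level of WRKY6 was highest in chl1-5 T0, then in wild type T0, chl1-5 T0.5 and wild type T0.5. At T0 chl1-5 stood at 0.16 against wild type (interval -0.22 to 0.54, adjusted p = 1.00). At T0.5 it stood at 0.43 (SE 0.17, interval 0.06 to 0.81), with an unadjusted p of 0.0282 and an adjusted p of 1.00, so this did not pass over all probe sets. The T0.5 value of chl1-5 was the higher in 3 of 3 replicate numbers, by 0.39, 0.30 and 0.60. The array groups overlapped, from 304 to 459 in chl1-5 against 246 to 317 in wild type. The change itself differed by 0.27 (SE 0.25, interval -0.26 to 0.80, adjusted p = 1.00). Leaving out replicate number 2 moved the change in chl1-5 from -0.49 to -0.24, and the fall of WRKY6 was thus deepest in that replicate, at -0.97 against -0.37 and -0.12 in replicates 1 and 3.

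BZIP53 had signals of 2402, 2216 and 2231 in wild type at T0 and of 3879, 7233 and 5573 at T0.5. In chl1-5 they were 2358, 1894 and 2610 at T0 and 3265, 5043 and 5531 at T0.5. Every T0.5 array exceeded every T0 array, and at T0.5 replicate 1 was the lowest array in both genotypes. The means were 2283 ± 103.5 and 5562 ± 1677 in wild type and 2287 ± 363 and 4613 ± 1192 in chl1-5 (SD, n = 3). The log2 change was 1.24 for the wild type and 0.99 for chl1-5 (SE 0.23 each).

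The spread of BZIP53 was uneven, since its coefficient of variation was 4.53% over the wild-type T0 arrays and 30.2% over the T0.5 arrays. By replicate number the rise in wild type was 1.61-fold, 3.26-fold and 2.50-fold, and in chl1-5 it was 1.39-fold, 2.66-fold and 2.12-fold. The order of the replicates was the same in both genotypes. The level of both genotypes was alike at T0, with chl1-5 at -0.01 (interval -0.50 to 0.49, adjusted p = 1.00). After nitrate chl1-5 stood at -0.26 (interval -0.76 to 0.24, adjusted p = 1.00), and the difference of the rises was -0.25 (SE 0.32, interval -0.95 to 0.45, adjusted p = 1.00). The rise was smaller in chl1-5 in 3 of 3 replicate numbers, by 0.22, 0.29 and 0.24.

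Touch and early stress genes, which answer handling within minutes, were followed on the same arrays. Of the 12 such genes listed, 3 had a named probe set, and their summed signal ranged from 1769 to 2875 in wild type T0, from 2270 to 5546 in wild type T0.5, from 1722 to 2605 in chl1-5 T0 and from 1892 to 6429 in chl1-5 T0.5. None of the 3 passed limma in either genotype, and 1 had an unadjusted p under 0.05 in each, which 19.3% of all probe sets had in wild type and 17.0% in chl1-5. That gene was CML38, a calmodulin-like gene, which stood 4.58-fold higher at T0.5 in wild type (adjusted p = 0.0655, and 0.0142 with the replicate block) and 4.19-fold higher in chl1-5 (adjusted p = 0.102, and 0.0233 with the block). With the block 11.8% of all probe sets passed in wild type and 9.9% in chl1-5. The CML38 arrays of T0 and T0.5 did not overlap in either genotype. CML38 had signals of 324, 1160 and 1375 in wild type T0.5 and of 237, 1071 and 1582 in chl1-5 T0.5. STZ, a zinc finger factor of stress responses, had signals of 1726, 3082 and 3208 in wild type T0.5 and of 1435, 3380 and 3629 in chl1-5 T0.5. WRKY53, a WRKY factor of senescence, had signals of 220, 574 and 963 in wild type T0.5 and of 220, 459 and 1217 in chl1-5 T0.5. Replicate 1 was the lowest T0.5 array for each of these 3 genes in both genotypes, as it was for BZIP53. WRKY22 and bZIP58 were instead highest in replicate 1 at T0.5 in both genotypes. WRKY6 was highest there in replicate 1 in wild type and in replicate 3 in chl1-5. The part of the 3 stress genes in the changes of the 4 factors was not tested.

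**Figure D2:**
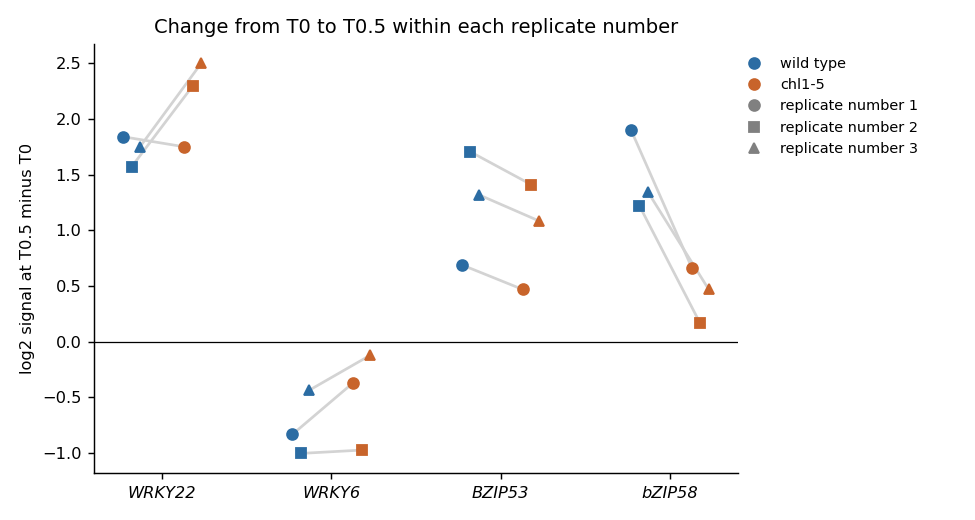
Change from T0 to T0.5 on the log2 scale (y axis) of each factor within each replicate number, wild type in blue and chl1-5 in orange, with a grey line joining arrays of the same number. For bZIP58 the change is smaller in chl1-5 in all 3 numbers (0.66, 0.16 and 0.47 against 1.90, 1.22 and 1.35), and for BZIP53 the 3 lines run nearly parallel.

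bZIP58 was the factor with the largest gap between genotypes. Its signals in wild type were 169.7, 186 and 235 at T0 and 636, 435 and 597 at T0.5. In chl1-5 they were 196, 176 and 212 at T0 and 310, 197 and 294 at T0.5. In wild type every T0.5 array lay above every T0 array, while in chl1-5 replicate 2 at T0.5 lay within the range of T0. The means were 197 ± 33.7 and 556 ± 106 in wild type and 195 ± 18.1 and 267 ± 61.1 in chl1-5 (SD, n = 3). The log2 change was 1.49 for the wild type and 0.43 for chl1-5 (SE 0.20 each). In order of level, both T0 groups stood lowest and nearly level, then chl1-5 T0.5, and wild type T0.5 highest.

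Before nitrate the level of bZIP58 in chl1-5 was 0.995 of that in wild type (interval 0.734 to 1.35, adjusted p = 1.00). After nitrate it was 0.478 of the wild-type level (log2 -1.07, SE 0.20, interval of the ratio 0.352 to 0.648). This had an unadjusted p of 1.85e-04 and a limma adjusted p of 0.0733, which missed the threshold. With the replicate number as a block, which the data bear out as a pairing, the adjusted p was 0.00483 and the SE 0.15. At T0.5 0.42% of all probe sets passed with the block. The gap between genotypes was alike in the 3 replicate numbers, at 2.05-fold, 2.21-fold and 2.03-fold. At T0.5 the arrays of both genotypes did not overlap for bZIP58, 1 of the 4 factors, where this was so for 6.46% of probe sets. None of the 4 factors passed the adjusted threshold at T0.5 without the block, where 0.224% of probe sets did, and 2 of the 4, bZIP58 and WRKY6, had an unadjusted p under 0.05, where 2.90% of probe sets did. The comparison at T0.5 shares its wild-type arrays with the wild-type change that bZIP58 was chosen on. Its p-values, with and without the block, are therefore not free of that choice.

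The difference of the changes shares its arrays with the changes from T0 to T0.5 on which the genes were chosen. It would be independent only of a choice made on the mean change over both genotypes, so its p-values for the 4 factors are not free of that choice. For bZIP58 the difference was -1.06 (SE 0.29, interval -1.68 to -0.44), so the rise in chl1-5 was 0.48 times that in wild type. The unadjusted p was 0.00291, which ranked 39 among 14291 probe sets. The adjusted p was 1.00, and 0.135 with the replicate block, so the difference did not pass by either fit. The change was smaller in chl1-5 in 3 of 3 replicate numbers, by 1.24, 1.06 and 0.88. Of the 4 factors none passed this test, as against 0.035% of probe sets, and bZIP58 was the 1 with an unadjusted p under 0.05, as against 1.94%. None passed at T0 either, where 0.028% of probe sets did, and none had an unadjusted p under 0.05, where 0.938% did.

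**Figure D3:**
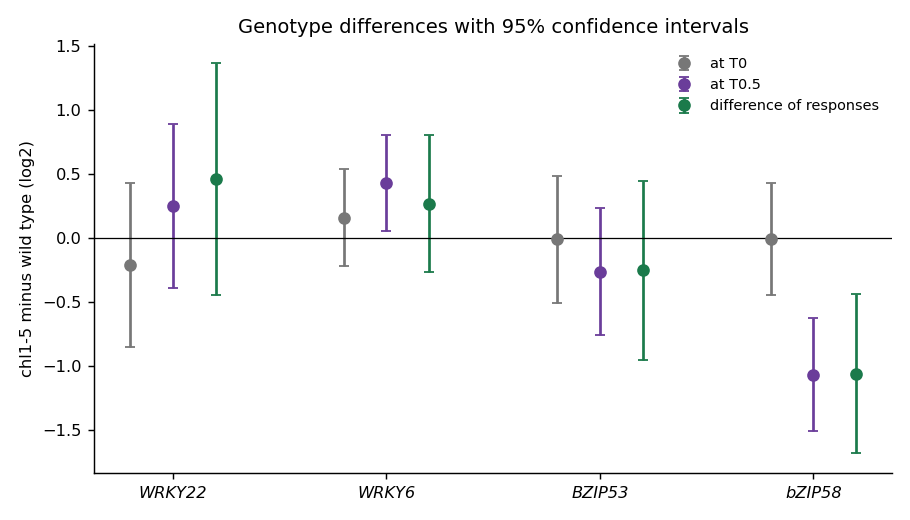
Difference between chl1-5 and wild type on the log2 scale (y axis) for each factor at T0, at T0.5 and in the change from T0 to T0.5, as points with 95% confidence intervals from the limma model. The model is the one without the replicate block. The intervals of bZIP58 at T0.5 and in the change lie below 0, that of WRKY6 at T0.5 lies just above 0, and all other intervals include 0.

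Other members of both families were measured too. Of 5 other WRKY genes with a named probe set, 4 were tested, since WRKY42 was weak on every array. None of the 4 passed limma in either genotype, where 5.58% of all probe sets passed in wild type and 3.86% in chl1-5. An unadjusted p under 0.05 was reached by 1 of the 4 in each genotype, as against 19.3% of all probe sets in wild type and 17.0% in chl1-5. Their median change was 0.03 in wild type (range -0.90 to 0.24) and -0.18 in chl1-5 (range -0.49 to 0.25). WRKY47 is in the same subgroup IIb as WRKY6 and stood at -0.90 in wild type (SE 0.29, adjusted p = 0.104) and at -0.49 in chl1-5 (adjusted p = 0.438). With the replicate block it passed in both, with an adjusted p of 0.00114 and 0.0472. With that block 11.8% of all probe sets passed in wild type and 9.9% in chl1-5. Its mean signals at T0 and T0.5 were 417 ± 147 and 220 ± 66.8 in wild-type roots and 442 ± 84.4 and 320 ± 93.3 in mutant roots (SD, n = 3). At T0.5 WRKY47 stood at 0.55 in chl1-5 against wild type (adjusted p = 1.00, and 0.252 with the block), beside 0.43 for WRKY6. ZAP1, the WRKY1 gene, stood at -0.02 in wild type and at -0.31 in chl1-5, and WRKY20 at 0.08 and -0.05.

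Of 20 other bZIP genes with a named probe set 13 were tested, and the other 7 were too weak. None of the 13 passed limma in either genotype, with 2 at an unadjusted p under 0.05 in wild type and 1 in chl1-5, beside the shares of 19.3% and 17.0% of all probe sets. Their median change was -0.13 in wild type (range -0.97 to 0.13) and -0.10 in chl1-5 (range -0.67 to 0.18), close to the medians of all probe sets. BZIP61 stood at -0.97 in wild type (SE 0.28, adjusted p = 0.0674, and 0.0331 with the replicate block) and at -0.67 in chl1-5 (adjusted p = 0.241, and 0.137 with the block). With the block 11.8% of all probe sets passed in wild type. bZIP19, a regulator of zinc uptake, stood at -0.35 and -0.26. BZIP17, BZIP28 and BZIP60, which act in the endoplasmic reticulum stress response, stood between -0.25 and 0.03 in wild type and between -0.13 and 0.05 in chl1-5. Between genotypes none of the 4 WRKY and 13 bZIP genes passed limma at T0, at T0.5 or in the difference of changes. None had an unadjusted p under 0.05 without the replicate block. With the block WRKY47 had an unadjusted limma p of 0.0021 at T0.5 and an adjusted p of 0.252.

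Of the 9 genes listed for the dimer network of groups C and S, 2 had a named probe set. These were BZIP53 itself and bZIP44, a group S relative, so no listed gene of group C was measured. bZIP44 stood at -0.02 in wild type and 0.11 in chl1-5 (SE 0.19, adjusted p = 0.968 and 0.838). Its mean signal was 1309 ± 342 and 1266 ± 121 in wild type and 1291 ± 128 and 1420 ± 322 in chl1-5 (SD, n = 3). Of 11 listed targets and upstream kinases 1 had a named probe set, the proline dehydrogenase gene PRODH2 (AT5G38710). It stood at 0.56 in wild type (SE 0.25, adjusted p = 0.234, and 0.0799 with the block) and at 0.45 in chl1-5 (adjusted p = 0.383), with mean signals of 621 ± 126 and 927 ± 261 in wild type and 634.5 ± 82.6 and 892 ± 268 in chl1-5.

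**Figure D4:**
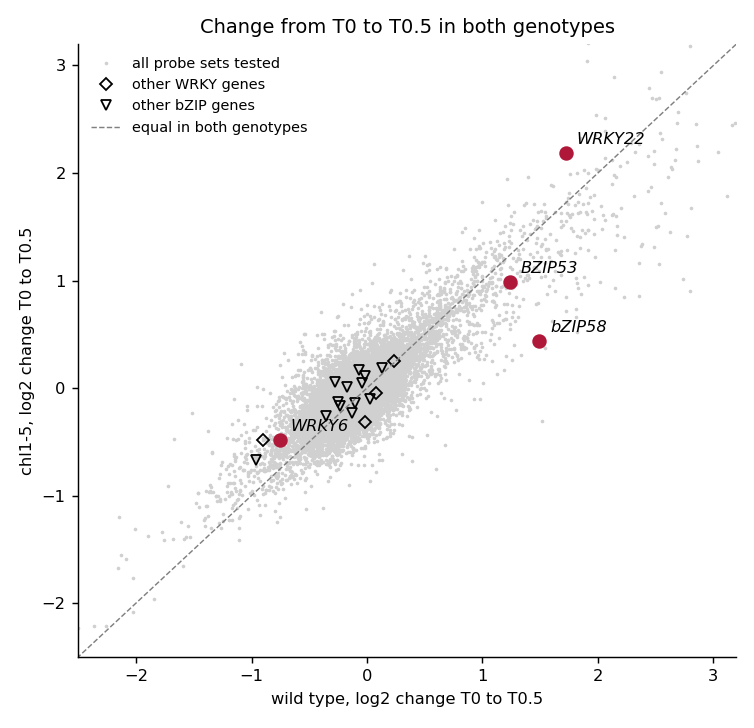
Change from T0 to T0.5 on the log2 scale in wild type (x axis) and chl1-5 (y axis) for all 14291 probe sets tested (grey dots, 37 of them outside the axes), the 4 factors (red), other WRKY genes (diamonds) and other bZIP genes (triangles), with a dashed line where both are equal. The other family members lie around 0, except WRKY47 and BZIP61 near WRKY6, and bZIP58 lies below the dashed line.

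Over the 12 arrays the log2 signals of the factors were related among themselves, with Pearson's r of 0.78 between WRKY22 and BZIP53, 0.69 between WRKY22 and bZIP58, 0.68 between BZIP53 and bZIP58, and -0.65 to -0.83 between WRKY6 and the other factors. These values share the same arrays and the step from T0 to T0.5 on which the genes were chosen. Within groups, after subtraction of each group mean, r was 0.41 between WRKY22 and WRKY6, 0.42 between WRKY22 and bZIP58 and 0.36 between WRKY6 and bZIP58. BZIP53 went against all of them within groups, with r of -0.30, -0.38 and -0.46 to WRKY22, WRKY6 and bZIP58.

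For each factor the 3 named genes with the most similar log2 signal over the 12 arrays were sought among 7708 other named probe sets. Nearest to WRKY22 were AT2G38640 (r = 0.95), AT4G16563 (r = 0.95) and EXLA1, an expansin-like gene (r = 0.94), which changed by 0.86, 1.19 and 2.51 in wild type and by 0.95, 1.19 and 2.69 in chl1-5. Nearest to WRKY6 were AT5G46080 (r = 0.93), AT4G03340 (r = 0.91) and AT3G01820 (r = 0.91), which stood at -0.71, -0.40 and -0.39 in wild type and at -0.58, -0.24 and -0.31 in chl1-5. Nearest to BZIP53 were AT1G15430 (r = 0.98), AT1G09575 (r = 0.98) and AT4G14500 (r = 0.97), which stood at 0.63, 1.03 and 0.43 in wild type and at 0.47, 0.90 and 0.47 in chl1-5. Nearest to bZIP58 were AT1G67920 (r = 0.95), AT5G65660 (r = 0.95) and AT5G39590 (r = 0.93). These stood at 1.26, 0.72 and 0.86 in wild type and at 0.66, 0.36 and 0.47 in chl1-5, each with the smaller change in chl1-5, a pattern for which they were selected.

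**Figure D5:**
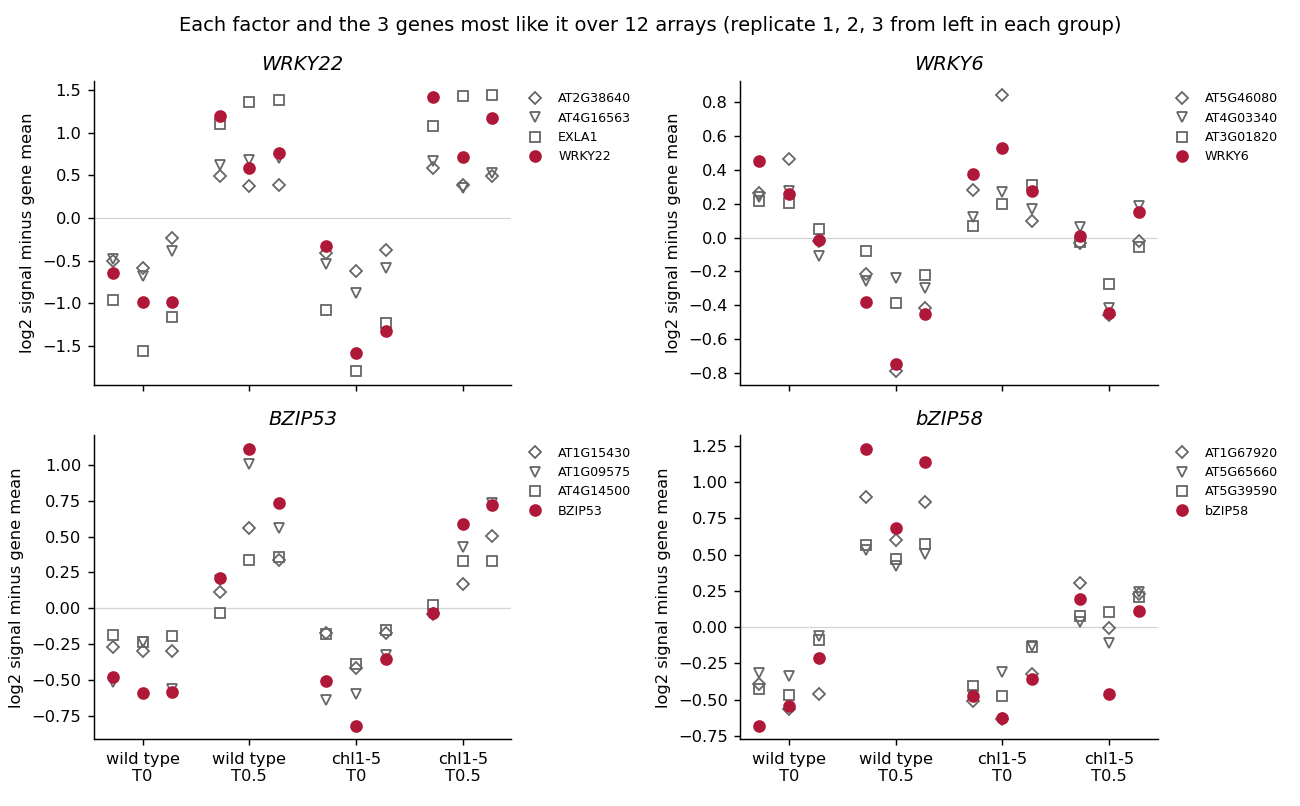
Log2 signal minus the gene's own mean over 12 arrays (y axis) for each factor (red) and the 3 named genes most like it (open symbols), by group, with replicates 1, 2 and 3 from left to right. The genes beside bZIP58 share its lower chl1-5 T0.5 level, and those beside BZIP53 share the low replicate 1 at T0.5.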

How the data were processed

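The authors deposited fluorescence intensities on a linear scale, 1 per probe set, made with MAS5 per the submitters' processing notes (version not given in the sources used here). Of 22810 probe sets 64 controls were left out. Of the other 22746, 13513 had 1 gene in the platform annotation, and 13436 of these were found by gene ID in RefSeq's TAIR10.1 table, from which only names were taken. Signals were floored at 0.1 and put on the log2 scale. Tested were the 14291 probe sets that reached the array's 40th percentile on 3 or more arrays. Group means of all 12 arrays were fitted together in limma 3.58.1 (R 4.3.3), with a trended eBayes. SEs, intervals and p-values are from this fit, without the replicate block, unless the block is named. With the block the SE of the wild-type change was 0.16 for WRKY22, 0.16 for WRKY6 and 0.20 for BZIP53. Tests were two-sided, with Benjamini-Hochberg adjustment over all probe sets and a threshold of 0.05. The fit was tested on simulated data with independent noise on each array, so that test did not cover the pairing by replicate number.

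Replicate numbers come from the titles, and the labels describe each as 1 independent experiment. Same-numbered arrays of different groups deviated together in all 18 pairs (r from 0.21 to 0.77), so the numbers pair the arrays. Pairs of other numbers had r from -0.63 to -0.01. The deviations of 3 arrays from their group mean sum to 0. The negative values thus go with the positive ones and are not separate evidence. No array was a copy of another. With 3 arrays per group, their number limits the precision.

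The 4 members and the gene lists were chosen with earlier results of these data known. Named genes are the 4 members, list genes that passed or stood out in a comparison (up to 8 per list), and the 3 genes most like each member. Genes named for comparison that did not pass were chosen after their values were seen. Alternatives were median scaling, quantile normalization, a floor of 16, no filter, a 60th percentile filter, no trend, the replicate block, fits of 1 genotype, and leaving out each array or each replicate number. No sequences are shown.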

Additional observations from a re-analysis of the deposited data

How the results depend on the processing

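Of 448 recomputed values of the 4 factors under the alternatives, 434 kept their direction and their side of the threshold or stayed within the replicate spread. For the changes from T0 to T0.5 only the estimate was compared. The floor, filters, trend, block and fits of 1 genotype could not move it, nor could leaving out the other genotype's arrays. The count therefore overstates how stable those changes are. With the replicate block, bZIP58 at T0.5 passed (log2 -1.07, limma adjusted p = 0.00483). Its adjusted p over all alternatives ran from 0.00483 to 0.769. That comparison shares its wild-type T0.5 arrays with the change bZIP58 was chosen on, so these p-values are not free of the choice. The block changed no other call of the 4 factors. The change of WRKY6 in chl1-5 ran from -0.67 to -0.24 on leaving out arrays or replicate numbers. Differences near 0 at T0 turned sign: BZIP53 to 0.027 under median scaling and from -0.13 to 0.12 on leaving out arrays, bZIP58 to 0.030 under median scaling, to 0.013 under quantile normalization and from -0.11 to 0.13 on leaving out arrays, and WRKY22 from -0.58 to 0.044 on leaving out arrays (0.044 without replicate 2 of chl1-5 T0).

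The changes from T0 to T0.5 on which the genes were chosen kept their direction under the alternatives run. On leaving out arrays or replicate numbers they ran in wild type from 1.55 to 1.85 for WRKY22, -0.92 to -0.63 for WRKY6, 1.01 to 1.51 for BZIP53 and 1.28 to 1.66 for bZIP58. In chl1-5 they ran from 1.93 to 2.56 for WRKY22, 0.78 to 1.25 for BZIP53 and 0.31 to 0.64 for bZIP58. The probe sets called numbered 797 in wild type (177 to 924 on leaving out arrays, 1690 with the replicate block), 552 in chl1-5 (73 to 855, 1415 with the block, 339 with chl1-5 arrays alone), 5 in the difference of changes (0 to 4, 17 with the block, 3 without trend), 4 at T0 (0 to 4, 2 with the 60th percentile filter) and 32 at T0.5 (0 to 33, 60 with the block). Weak signals limit the fold of WRKY22 in chl1-5 most, where 2 of 3 T0 arrays lay under the 40th percentile.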
